A study of Mus musculus with 120 samples.

Results

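The serpin genes of the mouse were followed in 28 RNA libraries, 18 of dissected gastrula embryos and 10 of a stem cell line. Members were all genes whose symbol begins with Serpin, a clade letter from a to i and a digit, and which stood in both count tables; 63 of 23154 genes in each table met this rule, which uses names and no measured value. Clade b held 27 of them, clade a 25, clade e 3, clades f and i 2 each, and clades c, d, g and h 1 each. RefSeq (GRCm38.p6) places 24 on chromosome 12, 15 on chromosome 13 and 14 on chromosome 1, where clades a and b lie in arrays of neighbouring copies. Reads from near-identical copies (the Serpina1, Serpina3, Serpinb6 and Serpinb9 groups) may be shared between them, so values of single genes in these groups are uncertain.

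Embryos were of the ICR strain, an outbred stock, collected at embryonic day 6.5 (E6.5), day 7.0 (E7.0) or day 7.5 (E7.5). Dissection separated extra-embryonic tissue (ExE) from the embryonic part. The embryonic part is named Epi at E6.5, was divided into regions P and A at E7.0, and into AM, P and A at E7.5. Each of these 9 groups had 2 libraries. The cells were E14/TG2A mouse embryonic stem cells in which CRISPR-Cas9 had removed the enhancer named Enh9E (KO), or unedited cells (WT). They were sampled before neural differentiation (D0) and on day 8 of it (D8), with 3 KO and 2 WT libraries on each day. No label states where Enh9E lies or which gene it controls, so the deletion was not checked in the counts, and the labels do not say whether the KO libraries descend from 1 clone. Nor is it stated whether replicates came from different embryos or cultures; the p-values given therefore rest on the spread among libraries, and that spread may be technical.

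Serpins are proteins of one shared fold. Most trap a serine protease by offering it a loop as bait, after which the protease is held in a covalent complex and cleared by receptors of the LDL receptor family; a few members have lost this activity and serve as chaperones or hormone carriers. Members secreted by the liver and, before it forms, by the yolk sac endoderm restrain blood clotting, fibrin breakdown and complement, whereas clade b members stay inside the cell and protect it from leaked granule and lysosomal proteases. In the implanting embryo the plasminogen activators, which several serpins inhibit, are known from trophoblast and parietal endoderm.

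Total counts ran from 5.15 to 17.1 M in embryo libraries and from 5.96 to 13.2 M in cell libraries. The labelled tissues were set against gene lists. Of 12 extra-embryonic ectoderm markers, 8, 9 and 8 were higher in ExE than in the embryonic part at E6.5, E7.0 and E7.5 (edgeR, adjusted p under 0.05) and 0 were lower, while 6, 4 and 4 of 8 epiblast genes were lower in ExE and 0, 0 and 2 higher, at E7.5 these were Utf1 and Pou3f1. On day 8 all 8 neural progenitor genes tested were higher, and all 8 stem cell genes lower, than on day 0, in KO as in WT cells. Libraries of 1 group could differ: the summed level of 16 visceral endoderm markers was 1685 and 8072 CPM in AM and 728 and 7251 CPM in P at E7.5. CPM is counts per M counts after TMM scaling, the unit of every level given here.

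Promoters are shown for 4 of the 7 members that were called both in embryos and in cells, as RefSeq (GRCm38.p6) has them, 250 bases before a transcript start, each 5′ to 3′ along the gene's own strand. Capitals mark GC boxes, the letters GGGCGG read on either strand, which are bound by Sp transcription factors. Serpinh1 lies on the minus strand with its window at chr7:99353240-99353489, Serpine2 on the minus strand at chr1:79858666-79858915, Serpinb6a on the minus strand at chr13:34002795-34003044 and Serpinb6c on the minus strand at chr13:33905192-33905441. The transcript start used for Serpinb6c lies inside the span of its gene record, whereas the other windows adjoin the end of theirs.
Serpinh1: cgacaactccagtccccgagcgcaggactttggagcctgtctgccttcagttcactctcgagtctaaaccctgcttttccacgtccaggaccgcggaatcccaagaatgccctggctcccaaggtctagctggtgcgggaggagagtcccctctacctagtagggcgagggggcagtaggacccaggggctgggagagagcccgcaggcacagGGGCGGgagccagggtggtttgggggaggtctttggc
Serpine2: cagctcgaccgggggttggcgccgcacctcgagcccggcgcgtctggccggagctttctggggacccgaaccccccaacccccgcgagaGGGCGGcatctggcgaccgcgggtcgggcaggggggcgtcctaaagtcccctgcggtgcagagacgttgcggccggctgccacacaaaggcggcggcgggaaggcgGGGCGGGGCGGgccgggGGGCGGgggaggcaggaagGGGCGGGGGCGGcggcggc
Serpinb6a: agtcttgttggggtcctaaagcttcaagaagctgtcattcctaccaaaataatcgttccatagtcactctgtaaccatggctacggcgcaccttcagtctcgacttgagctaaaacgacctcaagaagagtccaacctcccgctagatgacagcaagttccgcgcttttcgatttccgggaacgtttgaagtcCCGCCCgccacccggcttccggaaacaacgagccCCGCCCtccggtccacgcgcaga
Serpinb6c: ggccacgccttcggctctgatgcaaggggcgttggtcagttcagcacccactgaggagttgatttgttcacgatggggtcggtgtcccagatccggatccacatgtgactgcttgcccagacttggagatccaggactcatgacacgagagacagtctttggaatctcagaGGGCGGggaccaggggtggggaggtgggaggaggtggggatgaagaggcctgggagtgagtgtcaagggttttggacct
The Serpine2 window held 6 GC boxes, some of them overlapping, Serpinb6a held 2, and Serpinh1 and Serpinb6c held 1 each; of 32851 RefSeq windows of this length, 32.7% held at least 1. GC content was 78.8% in the Serpine2 window, 63.6% in Serpinh1, 58.8% in Serpinb6c and 54.4% in Serpinb6a. None of these 4 windows held the letters GAANNTTC (in 6.69% of all windows), the only form of the heat shock element searched. These letters read the same on both strands. Other arrangements of the element were not searched, so its absence is not shown. None held a TATA box (TATAAA, 12.4%) or a CCAAT box (CCAAT, 33.8%), each searched on both strands. The Serpinb6a and Serpinb6c windows matched at 139 of 213 aligned positions, gaps left out. No other pair of windows was aligned, so this match has no baseline. RefSeq promoters were found for 52 of the 63 members.

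Most serpins were near silent in these samples. In embryos 20 members passed the filter on low counts, namely Serpina5 and Serpina10, 9 of clade b, and all of clades c, e, f, g and h, with Serpini1 of clade i. In cells 13 passed, none of them of clades a, c and d. A member that passed only through the group where it is high had to differ between groups, so counts over those that passed are given without reading support from them. Of the 43 members left untested in embryos, 2 had no count (Serpina1e and Serpina4-ps1), 23 had at most 10 counts over all 18 libraries, and the highest level in any library was 5.39 CPM, of Serpinb10 in E7.0 ExE replicate 2. Of the 50 untested in cells, 2 had no count (Serpina1c and Serpina3j), 36 had at most 10, and the highest was 5.3 CPM, of Serpina3m. Serpind1, which encodes another plasma inhibitor of thrombin, was untested in both tables.

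The extra-embryonic part was compared with the embryonic part at each stage. Serpinh1, Serpinb6a and the antithrombin gene Serpinc1 were higher in ExE, each at 2 or more stages, and Serpine2 and Serpini1, both inhibitors of plasminogen activators, were lower in ExE at all 3. At E6.5, 4 of 20 members passed, 2 higher and 2 lower, where 8.93% of 14403 tested genes passed (3.69% higher and 5.24% lower). At E7.0, 9 passed, 7 higher and 2 lower, where 18.2% of genes passed (10% higher and 8.14% lower). At E7.5, 7 passed, 5 higher and 2 lower, where 21.3% of genes passed (13.4% higher and 7.91% lower). The median log2 fold change of the 20 members was 0.75, 1.62 and 0.03 at the 3 stages, against 0.03, −0.04 and −0.02 over all genes tested. In dissected tissue, fewer cells of a type and less RNA per cell cannot be told apart.

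**Figure D1:**
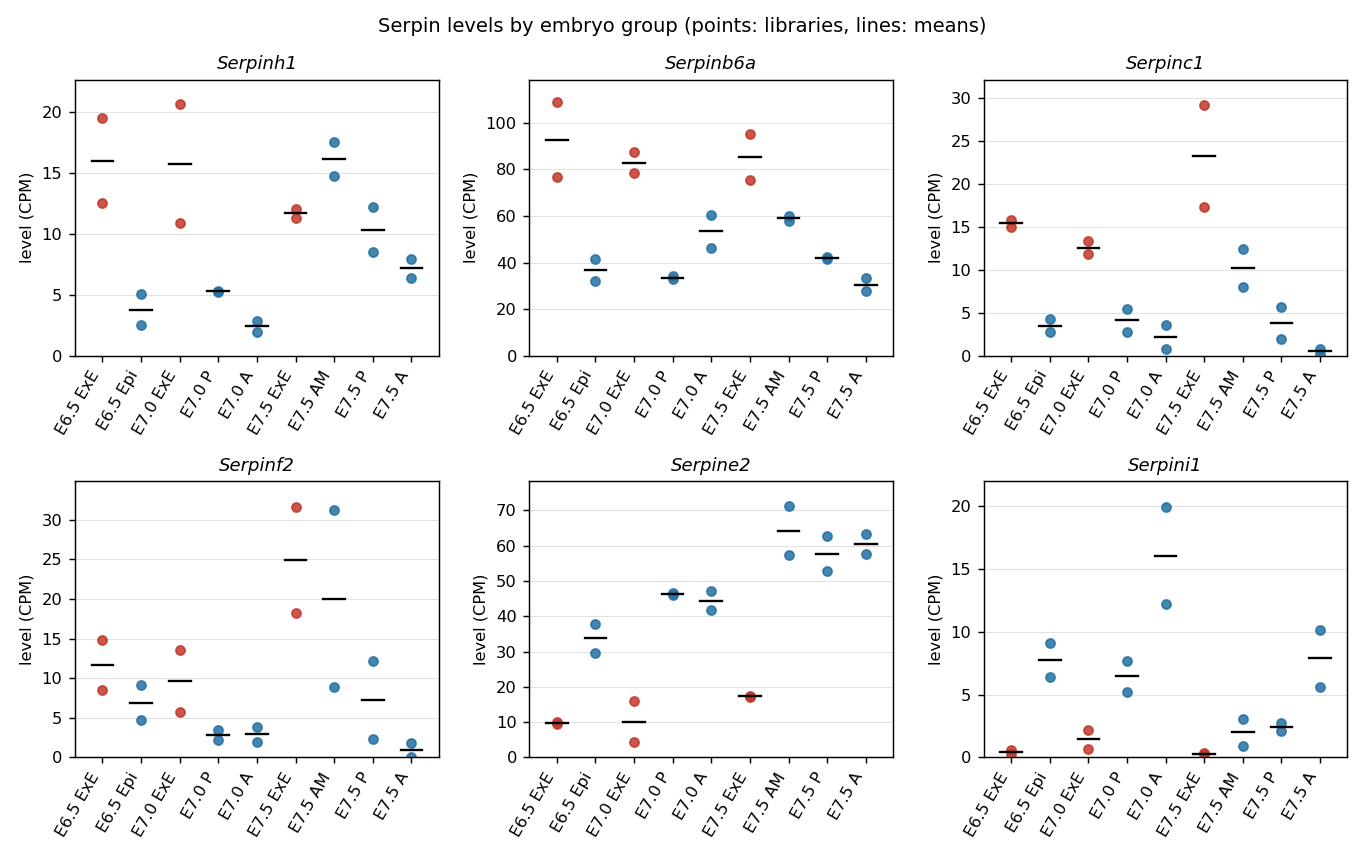
Levels of 6 serpins (CPM, linear axes from 0) in the 9 embryo groups, ExE in red and embryonic regions in blue; points are libraries and black lines group means (n = 2). Serpine2 and Serpini1 sit lower in ExE than in the embryonic groups of the same stage, and Serpinb6a and Serpinc1 sit higher.

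Serpinh1, on chromosome 7 (99345375 to 99353239), encodes the collagen chaperone of the endoplasmic reticulum, a serpin with no known protease target. It stood at 19.5 and 12.5 CPM in ExE and at 2.51 and 5.05 CPM in Epi at E6.5. At E7.0 it stood at 10.9 and 20.7 CPM in ExE, at 5.23 and 5.33 CPM in P and at 1.98 and 2.83 CPM in A. ExE libraries lay above all embryonic libraries at both stages. The log2 fold change was 2.08 ± 0.47 (SE; adjusted p = 0.0104) at E6.5 and 2.14 ± 0.38 (adjusted p = 0.00132) at E7.0. At E7.5 the groups overlapped, at 12.1 and 11.4 CPM in ExE and from 6.43 to 17.5 CPM (median 10.4) in the 6 embryonic libraries, and the log2 fold change was 0.14 ± 0.36 (adjusted p = 0.82). The change of the excess in ExE between E6.5 and E7.5, −1.94 ± 0.60, did not pass (adjusted p = 0.28). Without Epi replicate 1 or ExE replicate 1 the E6.5 call was lost (adjusted p from 0.000462 to 0.212 over 11 alternatives), and the E7.0 call held in all 13 tried.

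The collagens and collagen-modifying enzymes that work with this chaperone changed in part. Of 18 listed, ExE at E6.5 had 2 higher and 2 lower, at E7.0 4 and 1, and at E7.5 4 and 0. Col4a1 and Col4a2, the chains of basement membrane collagen, rose at every stage, by 1.63 ± 0.35 and 2.11 ± 0.52 at E6.5, 1.59 ± 0.29 and 1.77 ± 0.42 at E7.0, and 1.06 ± 0.27 and 1.47 ± 0.38 at E7.5. Fkbp10, a prolyl isomerase of collagen folding, was lower by −4.68 ± 1.02 at E6.5 and −2.87 ± 0.84 at E7.0. Of 11 parietal endoderm markers tested, 4 were higher and 1 lower at E6.5, 5 and 2 at E7.0, and 3 and 3 at E7.5. Their summed level at E6.5 ran from 594 to 822 CPM in ExE and from 333 to 381 CPM in Epi, and at E7.0 from 636 to 780 CPM in ExE and from 243 to 493 CPM in the embryonic part. At E7.5, where the Serpinh1 groups overlapped, the sums did too, at 558 to 565 CPM in ExE and 307 to 757 CPM in the embryonic part. At most 3 of the 12 markers were at 0 in any of these libraries. Their part in the Serpinh1 result was not tested.

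Serpinb6a, on chromosome 13 (33917918 to 34002794), encodes an intracellular inhibitor of trypsin-like proteases. It stood at 109 and 76.9 CPM in ExE and at 32.2 and 41.5 CPM in Epi at E6.5. At E7.0 it stood at 78.4 and 87.3 CPM in ExE, at 34.2 and 32.9 CPM in P and at 46.3 and 60.4 CPM in A. At E7.5 it stood at 75.4 and 95.1 CPM in ExE, against 27.6 to 60.1 CPM (median 41.9) in the 6 embryonic libraries. ExE was above every embryonic library of its stage. The log2 fold changes were 1.34 ± 0.28 (adjusted p = 0.00708), 0.97 ± 0.24 (adjusted p = 0.00951) and 1.01 ± 0.22 (adjusted p = 0.00357). The call was lost without Epi replicate 1 or ExE replicate 1 at E6.5, without ExE replicate 2 at E7.0 and E7.5, with the compared groups alone at E7.0, and with total counts as scaling at E7.5, where adjusted p then reached at most 0.15, 0.0679 and 0.116 at the 3 stages.

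The other clade b members that passed did so at 1 stage each. Serpinb6c, the neighbour of Serpinb6a (chromosome 13, 33879816 to 33905726), stood at 5.3 and 6.47 CPM in E7.0 ExE, at 0.575 and 0.888 CPM in P and at 0.989 and 1.42 CPM in A, a log2 fold change of 2.66 ± 0.84 (adjusted p = 0.0368). Its ExE levels were 0 and 0.563 CPM at E6.5 and 0.318 and 2.86 CPM at E7.5, within or below those of the embryonic part, and neither stage passed. Serpinb1a, an inhibitor of neutrophil elastase, stood at 2.94 and 2.48 CPM in E7.5 ExE and from 0 to 0.69 CPM (median 0.343) in the embryonic part (4.26 ± 1.3, adjusted p = 0.0303). That call was lost in 9 of 15 alternatives, among them leaving out either ExE replicate, and its adjusted p ran from 0.00094 to 0.148. Serpinb9b, a relative of the granzyme B inhibitor Serpinb9, stood at 4.05 and 18.3 CPM in E7.5 ExE and from 0.202 to 9.18 CPM (median 0.999) in the embryonic part, so the groups overlapped at a log2 fold change of 2.67 ± 0.69 (adjusted p = 0.0117). The call was lost with the compared groups alone and without ExE replicate 2, where the value was 1.19, and adjusted p over its 15 alternatives reached 0.516.

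Serpinb8 and Serpinb9f rested on few counts. Serpinb8 had 24 counts in E7.0 ExE, all in replicate 1 at 1.31 CPM, and 0 in P and A together, at least 15.2-fold higher when the floor is 3 counts over the embryonic libraries (adjusted p = 0.036). At E6.5 it had 35 counts in ExE, at 0.809 and 3.66 CPM, and 0 in Epi, and did not pass (adjusted p = 0.0704). Serpinb9f had 48 counts in E7.0 ExE and 2 in P and A, a ratio of 45.7 with a counting interval of 12 to 388 (95%, exact binomial, counting error only; adjusted p = 0.0277). At E7.5 Serpinb9f had 5 counts in ExE and 36 in the embryonic part and did not pass (−0.53 ± 1.37, adjusted p = 0.824). Both calls were lost on leaving out some single libraries, Serpinb8 without any one of the P or A libraries and in DESeq2, and Serpinb9f with the compared groups alone and without ExE replicate 1, P replicate 1 or A replicate 1 (adjusted p up to 0.106 and 0.117). Serpinb6c at E7.0 was lost without ExE replicate 2 or any one of the P or A libraries (adjusted p up to 0.122).

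Of the members that restrain clotting and fibrin breakdown in blood plasma, Serpinc1, Serpina10 and Serpinf2 were higher in ExE at 1 stage or more. Serpinc1, on chromosome 1 (160978583 to 161002543), encodes antithrombin, the main inhibitor of thrombin and factor Xa. It stood at 15.8 and 14.9 CPM in ExE and at 2.74 and 4.26 CPM in Epi at E6.5. At E7.0 it stood at 13.3 and 11.9 CPM in ExE, at 2.82 and 5.46 CPM in P and at 0.837 and 3.54 CPM in A. At E7.5 it stood at 17.2 and 29.1 CPM in ExE and from 0.253 to 12.5 CPM (median 3.81) in the embryonic part. No embryonic library reached the ExE libraries of its stage. The log2 fold change was 2.13 ± 0.66 at E6.5, which did not pass (adjusted p = 0.052), 2.11 ± 0.53 at E7.0 (adjusted p = 0.0125) and 3.12 ± 0.47 at E7.5 (adjusted p = 0.000279). The E7.0 call was lost without P replicate 1 or with the compared groups alone (adjusted p up to 0.0795), and the E7.5 call held in all 15 alternatives.

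Serpinf2, on chromosome 11 (75431736 to 75439501), encodes the main inhibitor of plasmin. At E7.5 it stood at 18.2 and 31.6 CPM in ExE and from 0 to 31.2 CPM (median 5.59) in the embryonic part, the highest of these in AM replicate 2. The groups overlapped, at a log2 fold change of 2.32 ± 0.76 (adjusted p = 0.0438) that was lost in 5 of 15 alternatives (adjusted p up to 0.359), among them leaving out either ExE replicate, AM replicate 1 or P replicate 1. At E6.5 and E7.0 it did not pass. Serpina10, on chromosome 12 (103616675 to 103631490), encodes the protein Z-dependent inhibitor of factor Xa and stood at 2.29 and 11.7 CPM in E7.0 ExE, against 0 and 0.381 CPM in P and 0.685 and 0.425 CPM in A (4.51 ± 1.13, adjusted p = 0.0118). Most of this level lay in ExE replicate 2, without which the call was lost, as it was without P replicate 1 (adjusted p up to 0.182). At E7.5 Serpina10 stood at 0 and 0.477 CPM in ExE, below the 2.81 and 2.55 CPM of AM. It stood at 0.345 and 0.262 CPM in P and at 0 and 0.0853 CPM in A, and this stage did not pass.

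Markers of visceral endoderm, the yolk sac lineage that secretes plasma proteins, were set beside Serpinc1, Serpinf2 and Serpina10. The summed level of its 16 markers ran from 6576 to 8917 CPM in ExE and from 3861 to 6356 CPM in Epi at E6.5, from 6245 to 8145 CPM in ExE and from 1704 to 4010 CPM in the embryonic part at E7.0, and from 14980 to 18460 CPM in ExE and from 22.6 to 8072 CPM in the embryonic part at E7.5. Of these 16, 1, 2 and 7 were higher in ExE at the 3 stages and 0 lower; all 16 were detected in every library but E7.5 A replicate 1, where 4 were at 0. Serpinc1 was lowest, at 0.253 CPM, in the library with the lowest marker sum (E7.5 A replicate 1) and highest, at 29.1 CPM, in the one with the highest sum (E7.5 ExE replicate 2), and Serpinf2 ran from 0 to 31.6 CPM between the same libraries. Serpina10 did not follow the marker sum: it was at 0 and 0.477 CPM in E7.5 ExE, where the sum was highest, and at 2.29 and 11.7 CPM in E7.0 ExE. Serpinc1 and Serpinf2 also departed from the order of the sums. In E7.5 P, with a sum of up to 7251 CPM, Serpinc1 reached at most 5.64 CPM. In E7.0 ExE, where sums began at 6245 CPM, it stood at 13.3 and 11.9 CPM. Serpinf2 stood at 31.2 CPM in E7.5 AM replicate 2, where sums reached 8072 CPM. It stood at 18.2 CPM in E7.5 ExE replicate 1, where sums began at 14980 CPM. The part of this tissue in the serpin levels was not tested.

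**Figure D2:**
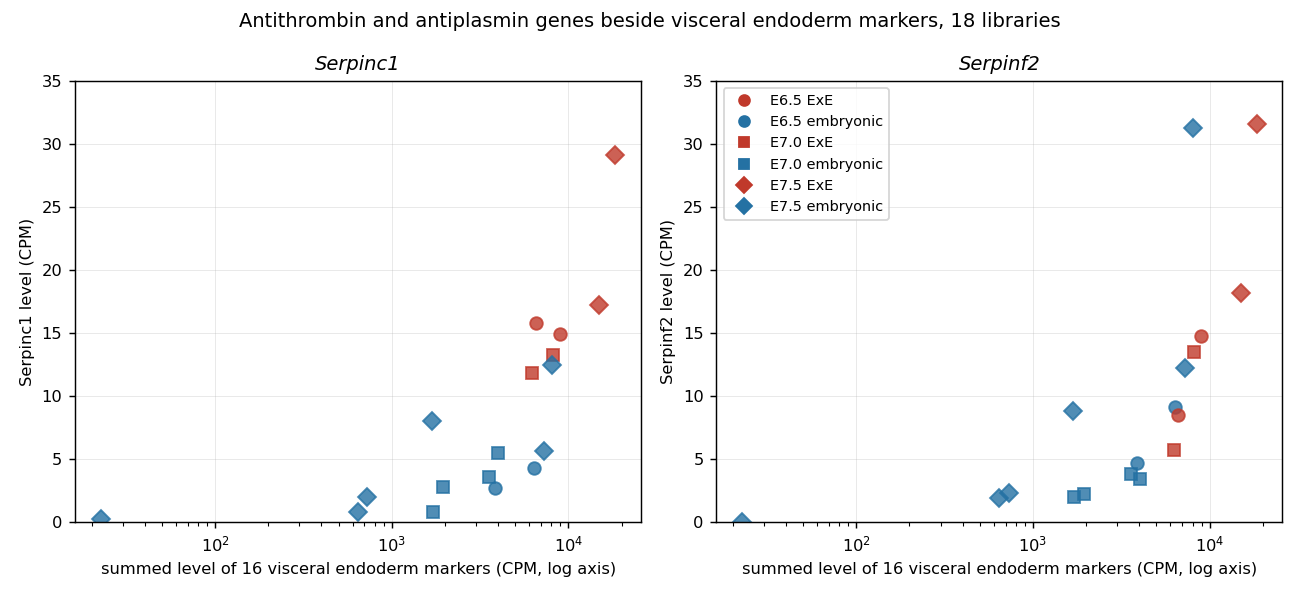
Level of Serpinc1 (left) and Serpinf2 (right) in CPM against the summed level of 16 visceral endoderm markers in CPM (log axis), 1 point for each of 18 embryo libraries, ExE in red and embryonic in blue, shapes by stage. Both genes are near 0 where the marker sum is 22.6 CPM and highest where it is 18460 CPM.

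Serpine2 and Serpini1, both inhibitors of plasminogen activators, ran the other way. Serpine2, on chromosome 1 (79794317 to 79858665), encodes a cell-surface inhibitor of thrombin, urokinase and tissue plasminogen activator. It stood at 10.1 and 9.43 CPM in ExE and at 37.8 and 29.7 CPM in Epi at E6.5. At E7.0 it stood at 16 and 4.31 CPM in ExE, at 46 and 46.6 CPM in P and at 47.1 and 41.8 CPM in A. At E7.5 it stood at 17.5 and 17.1 CPM in ExE and from 52.9 to 71.2 CPM (median 60.2) in the embryonic part. ExE lay below every embryonic library of its stage, with log2 fold changes of −1.79 ± 0.41 (adjusted p = 0.0116), −2.11 ± 0.38 (adjusted p = 0.00147) and −1.81 ± 0.36 (adjusted p = 0.00232). The calls at E7.0 and E7.5 held in all alternatives tried; that at E6.5 was lost with total counts as scaling and without Epi replicate 1 or either ExE replicate (adjusted p up to 0.112).

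Serpini1, on chromosome 3 (75557493 to 75642523), encodes neuroserpin, an inhibitor of tissue plasminogen activator best known from the nervous system. It stood at 0.629 and 0.281 CPM in ExE and at 9.13 and 6.44 CPM in Epi at E6.5. At E7.0 it stood at 0.71 and 2.16 CPM in ExE, at 7.7 and 5.2 CPM in P and at 19.9 and 12.2 CPM in A. At E7.5 it stood at 0.318 and 0.286 CPM in ExE and from 0.895 to 10.2 CPM (median 2.92) in the embryonic part. ExE was below every embryonic library of its stage, by −4.0 ± 0.77 (adjusted p = 0.00345), −2.95 ± 0.66 (adjusted p = 0.00621) and −3.42 ± 0.72 (adjusted p = 0.00336). Without ExE replicate 2 the calls at E6.5 and E7.5 were lost (adjusted p up to 0.0535 and 0.0723).

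The proteases that these serpins can inhibit were followed in a list of 27, of which 15 were tested in embryos. In ExE 1 was higher and 0 lower at E6.5, 6 and 0 at E7.0, and 7 and 1 at E7.5. Htra1, a secreted serine protease, was higher by 4.92 ± 0.59, 5.31 ± 0.46 and 3.09 ± 0.37 at the 3 stages. At E7.0 the clotting protease F7 (4.12 ± 1.06) and the membrane protease St14 (1.58 ± 0.43) rose too, and at E7.5 Ctsl, a lysosomal protease, by 2.37 ± 0.47 and F10 by 2.66 ± 0.54. Plat, which encodes tissue plasminogen activator, the target of Serpine2 and Serpini1, fell at E7.5 (−4.28 ± 0.997, adjusted p = 0.00737) and did not pass at E6.5 (−0.49 ± 1.13) or E7.0 (−1.01 ± 0.95).

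Of 14 tested cofactors and clearance receptors, ExE at E6.5 had 3 higher and 0 lower, at E7.0 4 and 1, and at E7.5 7 and 1. Plaur, the urokinase receptor, rose by 4.09 ± 0.72, 4.82 ± 0.58 and 4.86 ± 0.52, and Anxa2, a docking protein for plasminogen, by 4.45 ± 0.56, 4.20 ± 0.42 and 2.25 ± 0.36. Vldlr, a lipoprotein receptor that also clears serpin complexes, fell at E7.0 (−1.96 ± 0.66), and Vtn, an adhesive protein of plasma and matrix, at E7.5 (−4.62 ± 1.36). Among 17 tested inhibitors of other families, 0 rose and 2 fell at E6.5, 5 rose and 3 fell at E7.0, and 3 rose and 1 fell at E7.5. Tfpi, the inhibitor of the tissue factor pathway, was higher by 1.3 ± 0.33 at E7.0 and 1.42 ± 0.30 at E7.5, and Wfdc2, a small secreted inhibitor, was lower by −3.18 ± 0.37, −2.0 ± 0.33 and −1.35 ± 0.30 at the 3 stages.

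Markers of other tissues that an ExE piece could hold were counted as well. Of 7 tested ectoplacental cone and giant cell markers 3, 4 and 4 were higher in ExE at the 3 stages, with 0 lower. The summed level of this list was higher in ExE with no overlap at E6.5 and E7.0. At E7.5 it overlapped, at 2526 to 4011 CPM in ExE and 313 to 3377 CPM in the embryonic part, the highest of these in P. Of 6 tested primitive blood markers 1, 2 and 5 were higher and 0 lower. Of 6 tested decidua and maternal blood markers 0, 1 and 1 were higher and 0, 1 and 0 lower, and their summed level stayed between 2.03 and 11.4 CPM in every embryo library, with 6 to 11 of the 15 listed at 0.

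**Figure D3:**
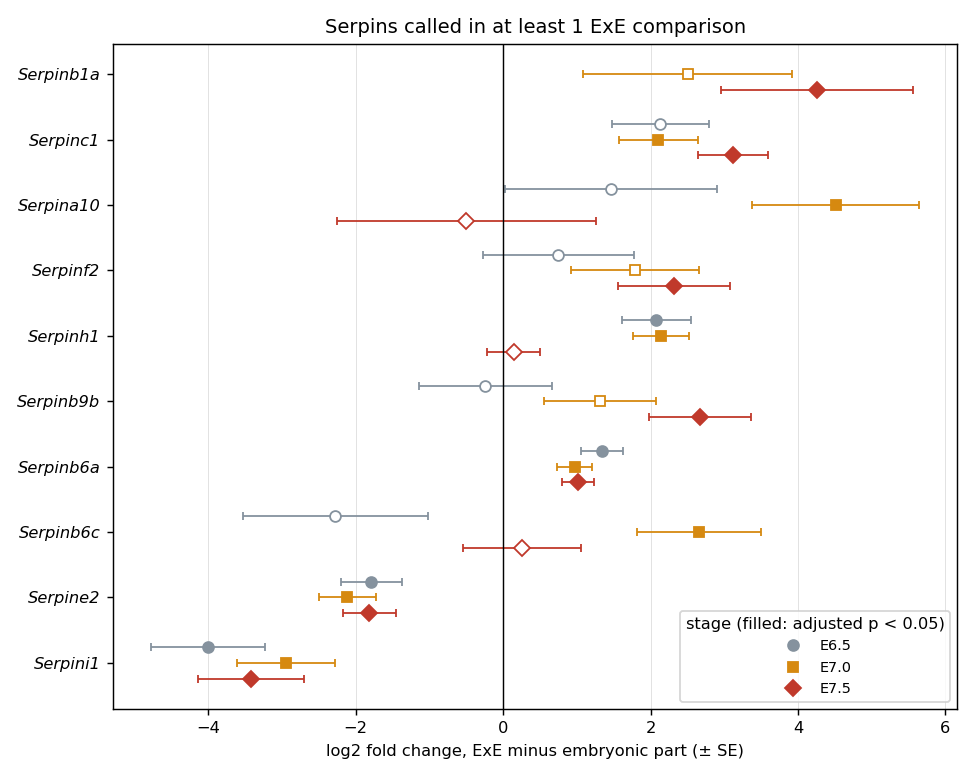
Log2 fold change (ExE minus the embryonic part, ± SE) at E6.5, E7.0 and E7.5 for serpins called at 1 or more stages; filled symbols passed at adjusted p under 0.05, contrasts with 3 counts or fewer on a side are not drawn, and Serpinb8 and Serpinb9f, whose only calls are of that kind, are left out. Serpine2 and Serpini1 lie left of 0 at each stage, Serpinb6a and Serpinc1 right of it, and Serpinh1 is at 0.14 at E7.5.

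Regions within the embryonic part were compared in pairs. At E7.0, 0 members passed in P minus A, where 0.00694% of genes passed; 2 had an unadjusted p under 0.05 (Serpinh1, 1.15 ± 0.48, and Serpinb6a, −0.67 ± 0.28) and DESeq2 called 0. At E7.5, 0 passed in P minus A, where 0.236% of genes passed; 7 had an unadjusted p under 0.05, and DESeq2 called 2, where it called 1.82% of genes. In AM minus P 0 passed, where 0.111% of genes passed; 2 had an unadjusted p under 0.05 (Serpina10 and Serpinc1), and DESeq2 called 0.

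In AM minus A at E7.5, 1 of 20 members passed, where 1.57% of genes passed (1.15% higher), and 11 had an unadjusted p under 0.05. It was Serpinc1, at 8.02 and 12.5 CPM in AM and 0.253 and 0.768 CPM in A, with no overlap (4.39 ± 0.76, adjusted p = 0.00673). Without A replicate 1, or with the compared groups alone, it was lost (adjusted p from 1.34e-08 to 0.15 over 11 alternatives). DESeq2 called 6 members, all higher in AM, where it called 4.13% of genes. Other members did not pass in edgeR. Serpinf2 stood at 8.84 and 31.2 CPM in AM and at 0 and 1.88 CPM in A (4.54 ± 1.20, adjusted p = 0.0842). Serpina5, an inhibitor of activated protein C, stood at 3.84 and 1.31 CPM in AM and at 0.0506 and 0 CPM in A, with 75 counts against 1 (adjusted p = 0.0809). Serpinb6c stood at 6.58 and 2.82 CPM in AM and at 0.101 and 0.512 CPM in A (4.0 ± 1.15, adjusted p = 0.101).

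Of 15 target proteases 4 were higher in AM than in A and 0 lower, among them F10, which encodes a clotting protease (4.14 ± 0.85), Plg, the plasminogen gene (5.18 ± 1.20), and F2, the thrombin gene (3.90 ± 0.92). Among the inhibitors of other families Ambp, a plasma protein precursor, rose by 6.99 ± 1.11 and Tfpi by 1.99 ± 0.41, the 2 that passed of 17. Of 18 collagen genes and enzymes 1 rose, Col4a1 (1.78 ± 0.36), and of 14 cofactors and receptors 0 passed. The visceral endoderm sum was 1685 and 8072 CPM in AM and 22.6 and 643 CPM in A, with 5 of 16 markers higher and 0 lower; its part in the Serpinc1 difference was not tested.

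Between stages 0 members passed. In ExE at E7.5 minus E6.5, where 0.972% of genes passed, 4 had an unadjusted p under 0.05 and DESeq2 called 1 (3.13% of genes); Serpinb9 stood at 6.99 and 6.49 CPM at E7.5 and at 0.0899 and 0.704 CPM at E6.5 (4.18 ± 1.10, adjusted p = 0.09). In the embryonic part at E7.5 minus Epi, where 2.63% of genes passed, 6 had an unadjusted p under 0.05 and DESeq2 called 1 (5.88% of genes); Serpinh1 stood from 6.43 to 17.5 CPM in the 6 E7.5 libraries and at 2.51 and 5.05 CPM in Epi, with no overlap (1.48 ± 0.41, adjusted p = 0.0627). For the ExE excess over the embryonic part at E7.5 minus E6.5, where 0.187% of genes passed, 2 had an unadjusted p under 0.05 and DESeq2 called 0.

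In the cells, the question was whether removal of Enh9E changed serpin levels before and after neural differentiation. On day 0, 0 of 13 members passed in KO minus WT, where 0.273% of 14629 tested genes passed, 2 had an unadjusted p under 0.05 and DESeq2 called 0. On day 8, Serpinb6c, Serpinb6a and Serpinh1 were higher in KO than in WT cells, 3 of 13 members with 0 lower, where 20.8% of genes passed (12.5% higher). The median log2 fold change on day 8 was 0.92 over the 13 members and 0.02 over all genes tested. The differences KO minus WT on day 8 minus those on day 0 passed for Serpinb6c and Serpinb6a, 2 of 13, where 5.76% of genes passed (3% higher).

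**Figure D4:**
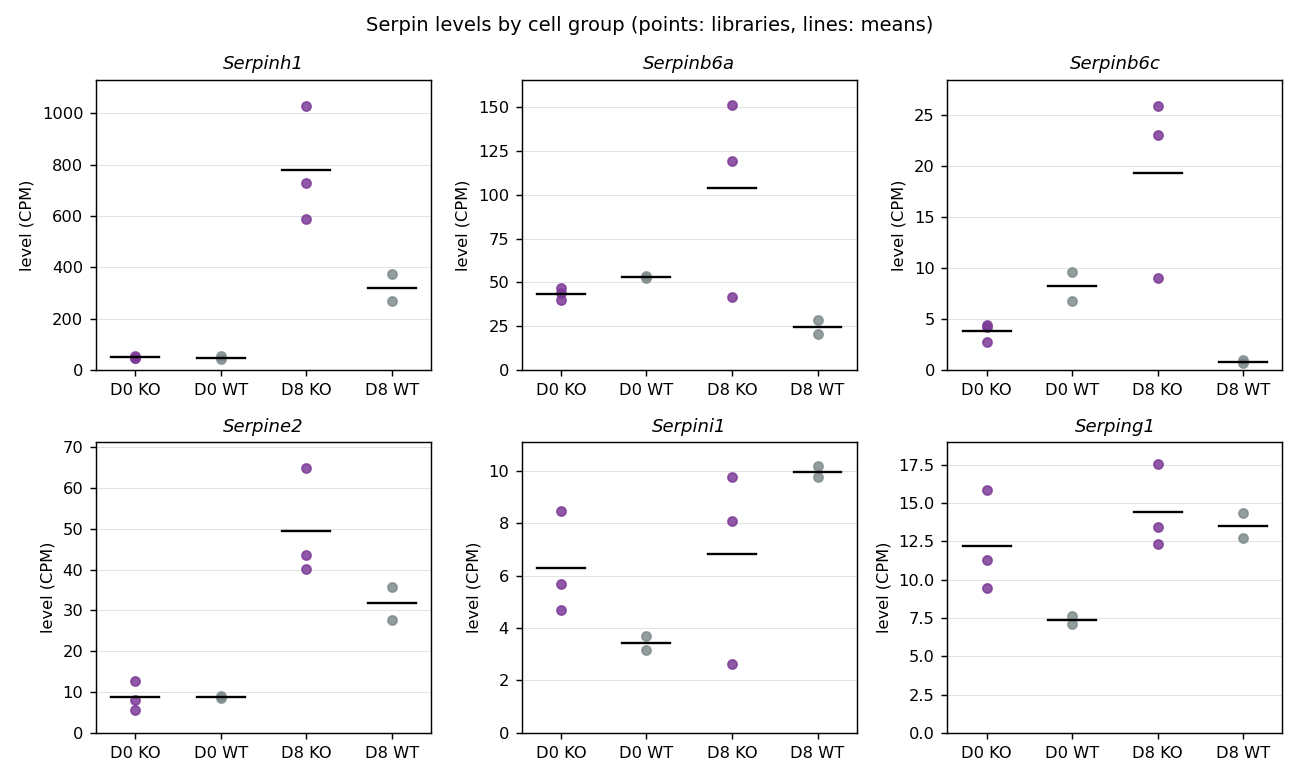
Levels of 6 serpins (CPM, linear axes from 0) in D0 KO, D0 WT, D8 KO and D8 WT cells; points are libraries and black lines group means (n = 3 KO, n = 2 WT). D8 KO lies above D8 WT for Serpinh1, Serpinb6a and Serpinb6c, and Serpine2 is higher in all D8 libraries than in any D0 library.

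Serpinb6c changed in opposite directions in KO and WT cells. On day 8 it stood at 8.97, 23 and 25.8 CPM in KO cells and at 0.738 and 0.964 CPM in WT cells. On day 0 it stood at 4.46, 4.23 and 2.76 CPM in KO cells and at 9.62 and 6.79 CPM in WT cells. Every D8 KO library was above every other cell library but 1 D0 WT library, and both D8 WT libraries were the lowest of all. KO minus WT on day 8 was 4.46 ± 0.56 (adjusted p = 0.00126), from 565 counts in KO and 14 in WT libraries. D8 minus D0 was 2.35 ± 0.39 in KO cells (adjusted p = 0.000318) and −3.23 ± 0.58 in WT cells (adjusted p = 0.000664), and the difference between them was 5.58 ± 0.70 (adjusted p = 0.00741). These 4 calls held in all alternatives tried.

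Serpinb6a followed with a wider spread. On day 8 it stood at 41.6, 151 and 119 CPM in KO cells and at 20.7 and 28.8 CPM in WT cells. On day 0 it stood at 44, 46.6 and 40.2 CPM in KO cells and at 52.3 and 53.5 CPM in WT cells. D8 KO replicate 1, at 41.6 CPM, lay among the D0 KO libraries. KO minus WT on day 8 was 2.06 ± 0.42 (adjusted p = 0.00778); it was lost without D8 WT replicate 1 or with the compared groups alone (adjusted p from 6.18e-06 to 0.0894). D8 minus D0 was 1.26 ± 0.35 in KO cells, whose libraries overlapped (adjusted p = 0.00846), and −1.09 ± 0.44 in WT cells, which did not pass (adjusted p = 0.0527). The difference between them, 2.34 ± 0.56 (adjusted p = 0.0389), was lost in 10 of 17 alternatives, among them all single libraries left out but D8 KO replicate 1 (adjusted p up to 0.152). The KO call between days was lost without D8 KO replicate 2 (adjusted p up to 0.0649).

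Clade b sums, most of each from Serpinb6a, were 56.9, 190 and 155 CPM in D8 KO and 27.2 and 32.7 CPM in D8 WT libraries. D8 KO replicate 1 lay apart from the other 2. Without that library 5 of 13 members passed on day 8, where 37.6% of genes then passed, and 4 in the difference between days, where 24.7% did. Without D8 WT replicate 1 there was 1 on day 8, where 5.13% of genes passed. Serpinb1a stood at 1.58, 10.4 and 4.23 CPM in D8 KO and at 1.77 and 0.643 CPM in D8 WT cells and did not pass (2.21 ± 0.73, adjusted p = 0.052). Serpinb9b stood at 1.48, 1.44 and 2.02 CPM in D8 KO and at 0.443 and 0.321 CPM in D8 WT cells, also short of the threshold (2.09 ± 0.70, adjusted p = 0.0539).

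Serpinh1 rose in both lines between days and was higher in KO than in WT cells on day 8. On day 8 it stood at 588, 726 and 1027 CPM in KO cells and at 269 and 374 CPM in WT cells. On day 0 it stood at 48.7, 49.2 and 55.4 CPM in KO cells and at 41.8 and 56.7 CPM in WT cells. D8 KO, D8 WT and D0 formed 3 levels with no overlap, and KO and WT overlapped on day 0. KO minus WT on day 8 was 1.28 ± 0.24 (adjusted p = 0.00579), lost without D8 WT replicate 1 or with the compared groups alone (adjusted p from 5.91e-05 to 0.0913). D8 minus D0 was 3.93 ± 0.24 in KO cells (adjusted p = 2.5e-07) and 2.71 ± 0.28 in WT cells (adjusted p = 1.17e-05), and both held in all alternatives. The difference between them, 1.22 ± 0.34, did not pass (adjusted p = 0.0562).

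Markers of parietal endoderm, a lineage that lays down a thick membrane of collagen IV and laminin, were set beside Serpinh1, Serpinb6a and Serpinb6c. The summed level of 12 parietal endoderm markers was 7291, 9553 and 12900 CPM in D8 KO cells and 1034 and 1764 CPM in D8 WT cells, and between 1376 and 1746 CPM on day 0. All 12 were higher in D8 KO than in D8 WT cells, with a median log2 fold change of 2.76, and none was at 0 in any cell library. In WT cells the sum overlapped between days, at 1034 and 1764 CPM on day 8 and 1376 to 1746 CPM on day 0. Serpinh1 rose and Serpinb6c fell between those days in WT cells. D8 KO replicate 3 had the highest sum and the highest Serpinh1 and Serpinb6c levels. Serpinb6a was highest in D8 KO replicate 2, at 151 CPM against 119 CPM in replicate 3. In KO minus WT on day 8, 6 of 11 tested visceral endoderm markers rose and 0 fell (sums of 116 to 214 CPM in KO and 40.3 to 58.5 CPM in WT). In the same comparison 5 of 8 neural progenitor genes fell and 0 rose (sums of 571 to 858 CPM in KO and 1469 to 1871 CPM in WT). Of the other marker lists, 0 of 11 tested extra-embryonic ectoderm markers, 1 of 4 ectoplacental cone and giant cell markers, 1 of 2 decidua and maternal blood markers and 0 of 3 primitive blood markers rose, and 1 primitive blood marker fell. The part of these cell types in the serpin differences was not tested.

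**Figure D5:**
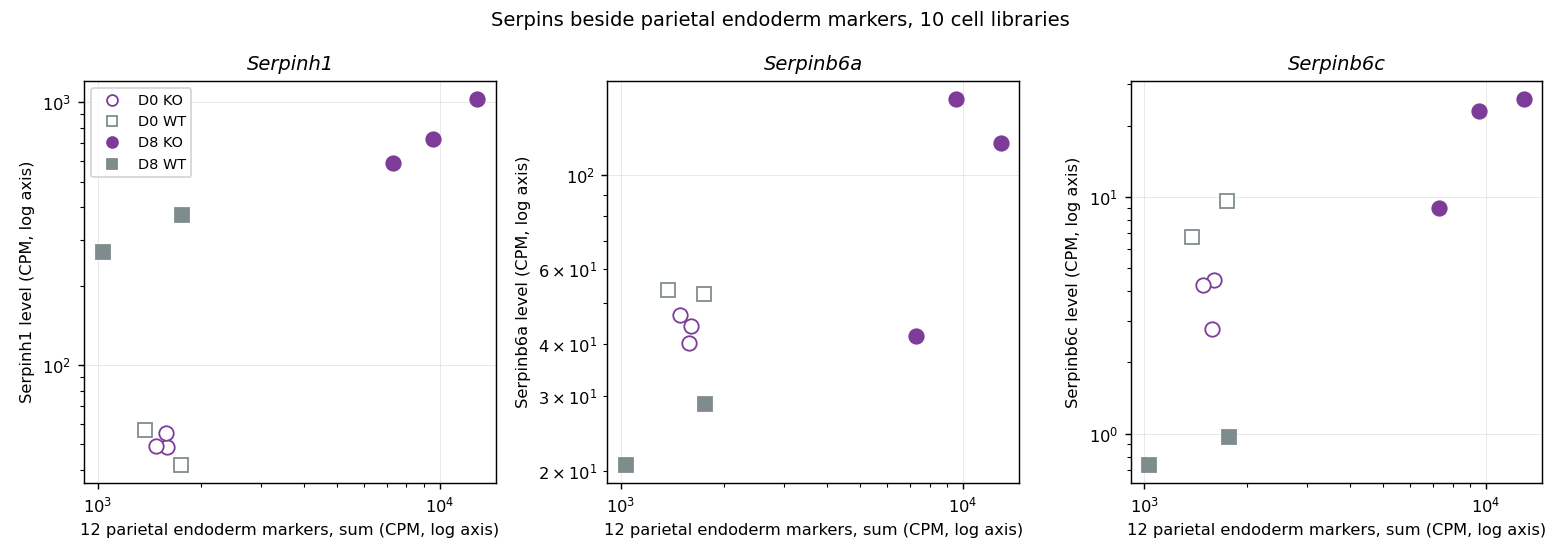
Level of Serpinh1, Serpinb6a and Serpinb6c in CPM against the summed level of 12 parietal endoderm markers in CPM (log axes), 1 point for each of 10 cell libraries; filled symbols are D8, open D0, circles KO and squares WT. The 3 D8 KO libraries stand apart at 7291 to 12900 CPM on the marker axis, and D8 KO replicate 1 has the lowest of the 3 levels for each gene.

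The partners of Serpinh1 rose in the same comparison: 11 of 18 collagen genes and enzymes were higher in D8 KO and 0 lower, among them Plod1 (1.96 ± 0.28), Col4a2 (2.54 ± 0.39) and P4ha2 (2.97 ± 0.45), the last a prolyl hydroxylase subunit, while Col1a1 did not pass (0.09 ± 0.45). In the difference between days 8 of 18 rose and 0 fell. Of 14 tested target proteases 6 were higher and 1 lower in D8 KO: the lysosomal Ctsb (1.43 ± 0.17) and Ctsl (2.65 ± 0.42) and the secreted Htra1 (3.19 ± 0.51) rose, and Masp1, a protease of the complement lectin pathway, fell (−2.45 ± 0.52). Of 15 cofactors and receptors 8 rose and 1 fell, with F3, tissue factor, at 3.12 ± 0.31, Procr, the receptor of protein C, at 3.17 ± 0.62, and Vldlr at −2.31 ± 0.32. Of 15 inhibitors of other families 7 rose and 0 fell, among them Tfpi (2.64 ± 0.42), Timp1 (2.48 ± 0.41) and Spint1 (1.07 ± 0.24). Plat, on the protease list, and Thbd, on the cofactor list, are also among the parietal endoderm markers.

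The KO libraries also differed from WT by chromosome: median log2 fold changes of KO minus WT on day 8 were 0.50 on chromosome 14, 0.45 on chromosome 6 and 0.23 on chromosome 11, and on day 0 0.47, 0.30 and 0.20. Lower medians were seen on day 0 on chromosome X (−0.18) and chromosome 8 (−0.15), which on day 8 were −0.01 and −0.06. Medians on chromosome 13, home of Serpinb6a and Serpinb6c, were −0.01 on both days, and on chromosome 7, home of Serpinh1, −0.08 on day 8 and −0.01 on day 0. The deletion and any other difference between the lines cannot be told apart.

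In D8 minus D0, 8 of 13 members (61.5%) passed in WT cells, 4 higher and 4 lower, where 57.2% of genes passed (27.9% higher and 29.3% lower). In KO cells 5 of 13 (38.5%) passed, 4 higher and 1 lower, a smaller share than the 64.5% of all genes (33.4% higher and 31.1% lower).

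Serpine2 rose in both lines. It stood at 64.8, 40 and 43.7 CPM in D8 KO and at 5.49, 12.7 and 8.13 CPM in D0 KO cells (2.48 ± 0.29, adjusted p = 2.16e-05). In WT cells it stood at 35.9 and 27.6 CPM on day 8 and at 8.51 and 9.11 CPM on day 0 (1.85 ± 0.35, adjusted p = 0.000998). KO minus WT on day 8, 0.64 ± 0.30, did not pass (adjusted p = 0.146). The changes of Serpine2 between days held in all alternatives tried.

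Serpini1 rose with differentiation in WT cells, at 9.74 and 10.2 CPM on day 8 and 3.7 and 3.18 CPM on day 0 (1.53 ± 0.53, adjusted p = 0.0285). In KO cells it stood at 2.64, 9.75 and 8.06 CPM on day 8 and at 8.46, 4.68 and 5.69 CPM on day 0, with overlap, and did not pass. The WT call was lost without any 1 of the 4 WT libraries (adjusted p up to 0.112). Serping1, on chromosome 2 (84765360 to 84775444), encodes the inhibitor of the first complement proteases. It stood at 12.7 and 14.4 CPM in D8 WT and at 7.65 and 7.08 CPM in D0 WT cells (0.88 ± 0.30, adjusted p = 0.0276), a call lost without either D0 WT library or without D8 WT replicate 2 (adjusted p up to 0.105). In KO cells it stood at 12.4, 13.4 and 17.5 CPM on day 8 and at 15.9, 11.3 and 9.48 CPM on day 0 and did not pass. In embryos Serping1 ran from 0.719 to 6.17 CPM and passed in no comparison.

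Further clade b members fell in WT cells. Beside Serpinb6c, Serpinb1a stood at 1.77 and 0.643 CPM in D8 WT and at 8.27 and 9.83 CPM in D0 WT cells (−2.95 ± 0.77, adjusted p = 0.00656), lost without D8 WT replicate 2 (adjusted p up to 0.0666). Serpinb9b stood at 0.443 and 0.321 CPM in D8 WT and at 3.7 and 2.89 CPM in D0 WT cells (−3.09 ± 0.72, adjusted p = 0.00337), from 6 counts against 50. The clade sum was 27.2 and 32.7 CPM in D8 WT and 78.6 and 76.2 CPM in D0 WT cells. Most of it was Serpinb6a, at 20.7 and 28.8 CPM in D8 WT and 52.3 and 53.5 CPM in D0 WT cells, whose own change did not pass.

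Other genes of the pathway changed between days in both directions. The counts below stand beside 64.5% of all genes in KO cells (33.4% higher and 31.1% lower). In WT cells the share was 57.2% (27.9% higher and 29.3% lower). Of 14 target proteases 7 rose and 3 fell in KO cells, and 4 rose and 3 fell in WT cells. Plat rose by 6.86 ± 0.45 in KO and by 4.63 ± 0.52 in WT cells, and St14 fell by −2.61 ± 0.25 in KO and by −4.14 ± 0.35 in WT cells. Of 15 cofactors and receptors 8 rose and 1 fell in KO cells, and 5 rose and 3 fell in WT cells; F3 rose by 3.73 ± 0.28 in KO and by 1.58 ± 0.36 in WT cells. Of 15 inhibitors of other families 7 rose and 4 fell in KO cells, and 3 rose and 5 fell in WT cells, with Spint1 lower in both, at −3.65 ± 0.19 in KO and −5.13 ± 0.26 in WT cells. Of 18 collagen genes and enzymes 12 rose and 3 fell in KO cells, and 8 rose and 3 fell in WT cells; Col4a1 rose by 5.15 ± 0.37 in KO and by 2.91 ± 0.41 in WT cells, and Crtap, a subunit of the prolyl hydroxylation complex, fell by −1.36 ± 0.21 in KO and by −2.99 ± 0.28 in WT cells.

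Across both tables, 14 of the 63 members, or of the 20 tested, passed in at least 1 of 15 comparisons, where 79.2% of tested genes did. In embryos 12 of 20 passed in at least 1, where 32.5% of genes did, and in cells 9 of 13, where 78.2% did. Of the 13 tested in embryos and in cells, 7 passed in both, where 27.3% of genes did. The remaining 43 were tested in neither table for want of counts, and 6 were tested and passed in none.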

How the data were processed

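RNA was measured in 18 embryo and 10 cell libraries; the series lists 120 samples, and the others were not used here. Per the labels, polyadenylated RNA was sequenced, from Nextera XT libraries of embryos and NEBNext libraries of cells. The authors deposited whole-number counts per gene, in 1 table for embryos and 1 for cells, and per the submitters' processing notes CASAVA 1.8, TopHat2 2.0.9 and BWA were used with build mm10. For the counting tool and its strand setting, the sources used here give nothing. A further 6 columns of the embryo counts matched no sample and were left out.

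Counts were tested with edgeR 4.0.16 in R 4.3.3, by the quasi-likelihood test with TMM scaling, on genes passing filterByExpr (minimum count 10, minimum total 15), with all groups of a table in 1 fit and Benjamini-Hochberg adjustment over all genes tested at 0.05. SE is the log2 fold change divided by the root of F. The code was tested on simulated data. Alternatives were DESeq2 1.42.0, its size factors, total counts as scaling, other count filters, the compared groups alone, the replicate number as a block, and leaving out each library. Replicates of a group differed beyond sampling noise, with chi-square per degree of freedom from 40.4 to 134 in embryos and from 3.78 to 63.9 in cells. Totals per library limit the precision of low genes, and counting intervals and floors cover counting error only, since reads without molecular identifiers are not independent molecules.

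Members and gene lists were chosen with earlier results of these data known, and the stem cell, neural progenitor and epiblast lists after the data had been seen. Members called in any comparison are described in every library compared. Of the other lists, up to 3 called genes with the smallest p per direction and comparison were named, with up to 1 that did not pass; a gene so named may also be given in the other comparisons. A serpin is not reported here by name, though it is included in the counts of members.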

Additional observations from a re-analysis of the deposited data

Results flagged for a closer look

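The change between day 0 and day 8 differed between KO and WT cells, by a test of the difference itself (edgeR interaction term), for 2 serpins. For Serpinb6c the difference was 5.58 on the log2 scale (adjusted p = 0.00741), and for Serpinb6a it was 2.34 (adjusted p = 0.0389).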

How the results depend on the processing

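No call of a named serpin changed direction under any alternative. Counts of called serpins moved by over 1.5 times as follows. With the compared groups alone there were 2 on day 0 and 1 on day 8 in KO minus WT, 5 at E7.0 in ExE, 0 in AM minus A at E7.5 and 1 in ExE at E7.5 minus E6.5. With no filter there were 6 in AM minus A, 4 in P minus A at E7.5, 2 in the embryonic part at E7.5 minus Epi, 1 in ExE at E7.5 minus E6.5 and 1 for the ExE excess. With total counts there were 2 in AM minus A and 1 in the embryonic part at E7.5 minus Epi. DESeq2 called 6 in AM minus A, 2 in P minus A at E7.5, 1 in the embryonic part at E7.5 minus Epi, 1 in ExE at E7.5 minus E6.5 and 4 in KO minus WT between days. For DESeq2 the share of all genes called was larger too in these embryo comparisons, as given above. For the other settings no such share is set beside the counts, so they do not tell serpins from all genes. The cause was not tested.

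Replicate numbers were not taken as a pairing, since the labels tie no number to an embryo or culture. Each embryo and WT group has 2 replicates and each KO group 3. Correlations of same-numbered deviations, taken from replicates 1 and 2, ran from −0.0985 to 0.563 over all embryo groups and from −0.0252 to 0.151 in cells. Regions of the embryonic part of 1 stage did deviate together: r was 0.363 for AM and A, 0.374 for A and P and 0.563 for AM and P at E7.5, and 0.321 for A and P at E7.0, a hint from the data and not from the design. With the replicate block there were 2 called in AM minus A (2.57% of genes), 1 in P minus A at E7.5 (0.542%) and 1 in the embryonic part at E7.5 minus Epi (4.16%), and no named call was lost.

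Leaving out 1 library gave 0 to 0 calls for KO minus WT on day 0, for P minus A at E7.0, for AM minus P, for ExE at E7.5 minus E6.5 and for the ExE excess. It gave 1 to 5 for KO minus WT on day 8, 1 to 4 for it between days, 4 to 6 in KO and 6 to 8 in WT cells between days. In ExE it gave 1 to 4 at E6.5, with 1 without Epi replicate 1 or ExE replicate 1, 4 at E7.0 without P replicate 1 to 10 without ExE replicate 1, and 2 without ExE replicate 2 to 6 at E7.5. The count also moved in AM minus A, in P minus A at E7.5 and in the embryonic part at E7.5 minus Epi. For KO minus WT on day 8 and between days the share of all genes called moved too, as given above. For the other ranges no such share is set beside them, so they do not tell serpins from all genes.

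Scaling by total counts moved the median of all genes by 0.33 at E6.5, 0.17 at E7.0 and −0.30 at E7.5 in ExE minus the embryonic part, by −0.20 in KO minus WT on day 8 and by 0.30 in WT cells between days. The share of called genes that were higher was then 63.2%, 69.7% and 44.5% in the 3 stages of ExE, against 41.3%, 55.1% and 62.9% with TMM, and 37.7% on day 8 in KO minus WT, against 60.3% (48.1% with DESeq2 size factors). With 2 libraries a group, low members such as Serpinb8 cannot be ranked, and their values rest on few counts.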
